A study of Mus musculus with 10 samples.

Results

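Toll-like receptors are transmembrane sensors that bind microbial molecules and some molecules released by damaged cells. The 10 genes described here are the mouse receptors Tlr1, Tlr2, Tlr4 and Tlr6, which act at the cell surface, Tlr7, Tlr8, Tlr9 and Tlr13, which act in endosomes, the co-receptor Cd14 and the shared adaptor Myd88. They were chosen by gene symbol, and all 10 were found among the 22064 genes of the tables of sorted cells. The table of the cultured cells, with 19333 genes, holds 7 of them and has no row for Tlr1, Tlr8 or Tlr9.

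The series holds 10 mouse RNA sequencing libraries from 4 groups, read on both ends at 150 bases. Primary cultures of oligodendrocyte precursor cells (OPCs), the cells that give rise to myelin-forming oligodendrocytes, were immunopanned from mice and kept for 3 days in medium with the growth factor PDGFAA. The Apc-deleted cultures carry Olig2-Cre:Apc-fl/fl (n = 3), so that Cre is made in cells that express Olig2, and the wild-type cultures came from Apc-fl/fl littermates, which hold the floxed alleles without Cre (n = 3). The other libraries were sorted from the spinal cord 18 days after induction of experimental autoimmune encephalomyelitis (EAE), an inflammatory disease of the central nervous system, in mice of the genotype Pdgfra-CreER:Apc-fl/fl: CD4+ cells labelled Th1 (n = 1) and CD11b+Gr-1+NK1.1+ cells labelled cytotoxic macrophage (n = 3). In this genotype Cre is made in Pdgfra-expressing cells, all the sorted cells come from it, and so no sorted library is a genotype control of another. The labels used here do not say whether the macrophage libraries came from separate animals, and their spread may be technical.

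The surface receptors read lipids and lipoproteins of the microbial envelope, and the endosomal receptors read nucleic acids after material has been taken up. Receptors of both classes recruit the adaptor Myd88, which brings in the IRAK kinases, and the pathway leads to NF-kappaB and interferon regulatory factors. Neutrophils, monocytes, macrophages and microglia are the cells best known for these receptors in an inflamed spinal cord, and naive T cells carry little Cd14.

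The sorted libraries went against their labels in part, which bears on every value below. Of 10 T cell markers, 9 had no read in the library labelled Th1, among them Cd3d, Cd3e, Cd3g and Cd4, and the exception was Lck at 66.3 TPM (transcript abundance corrected for length and scaled to a common total). The summed TPM of 13 neutrophil markers was 24481 in the library labelled Th1, against 433737 to 436824 in the macrophage libraries, and that of 12 monocyte and macrophage markers was 13711 against 29386 to 29938. Within the macrophage libraries the neutrophil sum was thus far above the monocyte and macrophage sum. The name macrophage libraries is used below for the label, not for a cell type shown by these markers. S100a8 alone made up 57.0% of the neutrophil sum in the library labelled Th1 and 71.2% to 71.6% in the macrophage libraries, and Lyz2 made up 80.3% and 76.2% to 76.8% of the monocyte and macrophage sum. Klrb1c encodes NK1.1, an antigen by which the macrophage libraries were sorted, and had only 6 to 11 reads there (0.05 to 0.1 TPM). The library labelled Th1, sorted for CD4, had no read of Klrb1c. The library labelled Th1 summed to 3051730 estimated reads over 6550 genes with a read, and the macrophage libraries summed to between 23174908 and 23564215 over 13655 to 13739 genes. Of these genes, 2134 had 10 or more reads in the library labelled Th1, against 11005 to 11079 in the macrophage libraries. The 815 genes with the most reads held 88.6% of the reads in the library labelled Th1. In the macrophage libraries the top 1960 to 1990 genes held 91.0%. Of 964 genes at 100 CPM (reads scaled to a common library total, with no length correction) or more in every macrophage library, 143 (14.8%) had no read in the library labelled Th1 and 394 (40.9%) had 10 or fewer.

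Tlr1 and Tlr6 encode sensors that each pair with Tlr2, Tlr1 for triacylated and Tlr6 for diacylated lipopeptides, and they are neighbours on mouse chromosome 5. Their sequences are shown because the genes are so alike over part of their length that a read can come from either, which touches both of their values. On GRCm38, Tlr1 lies at chr5:64924679-64933563 and Tlr6 at chr5:64952031-64960097, both on the minus strand, each with its whole coding sequence in 1 exon, of 2385 and 2418 bases. Over 2339 aligned bases 77.0% were identical, and 6 identical runs of 50 bases or more held 748 bases, 31.4% of the Tlr1 and 30.9% of the Tlr6 coding sequence. The longest run had 229 bases. It is shown here in 5′ to 3′ direction of the coding strand with the neighbouring bases, at chr5:64925517-64925785 for Tlr1 and chr5:64953808-64954076 for Tlr6, with the 2 bases that differ in capitals.
Tlr1: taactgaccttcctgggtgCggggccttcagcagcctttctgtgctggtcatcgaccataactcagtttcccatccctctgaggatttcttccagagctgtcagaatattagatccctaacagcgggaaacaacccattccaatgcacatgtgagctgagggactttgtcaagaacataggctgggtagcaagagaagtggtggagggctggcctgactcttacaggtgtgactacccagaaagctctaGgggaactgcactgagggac
Tlr6: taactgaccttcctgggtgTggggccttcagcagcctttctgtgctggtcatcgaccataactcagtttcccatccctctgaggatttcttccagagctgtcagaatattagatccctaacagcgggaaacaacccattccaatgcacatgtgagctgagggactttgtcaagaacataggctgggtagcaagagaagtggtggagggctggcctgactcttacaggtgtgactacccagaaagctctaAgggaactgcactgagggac
The start of the coding sequences differs far more. In the first 120 aligned bases without a gap, at chr5:64927051-64927170 for Tlr1 and chr5:64955336-64955455 for Tlr6, 47 bases differ and are again in capitals.
Tlr1: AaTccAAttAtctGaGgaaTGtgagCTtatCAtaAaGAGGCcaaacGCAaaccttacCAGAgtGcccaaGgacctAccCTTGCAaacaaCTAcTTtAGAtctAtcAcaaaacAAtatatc
Tlr6: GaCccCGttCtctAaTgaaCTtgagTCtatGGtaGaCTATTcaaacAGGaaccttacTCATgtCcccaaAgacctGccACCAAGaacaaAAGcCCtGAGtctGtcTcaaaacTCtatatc
Reads from the first stretch cannot be told apart by sequence unless they reach a differing base, and those of the second can. The deposited read counts of both genes were fractions in all 3 macrophage libraries. Tlr1 had 135.16, 130.39 and 138.66 and Tlr6 had 239.84, 206.61 and 234.34 estimated reads, and within each library they summed to the whole numbers 375, 337 and 373. The share given to Tlr6 was 64.0%, 61.3% and 62.8%. The sum of the pair is thus a whole count, while the split between them is an estimate in the deposited values.

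**Figure D1:**
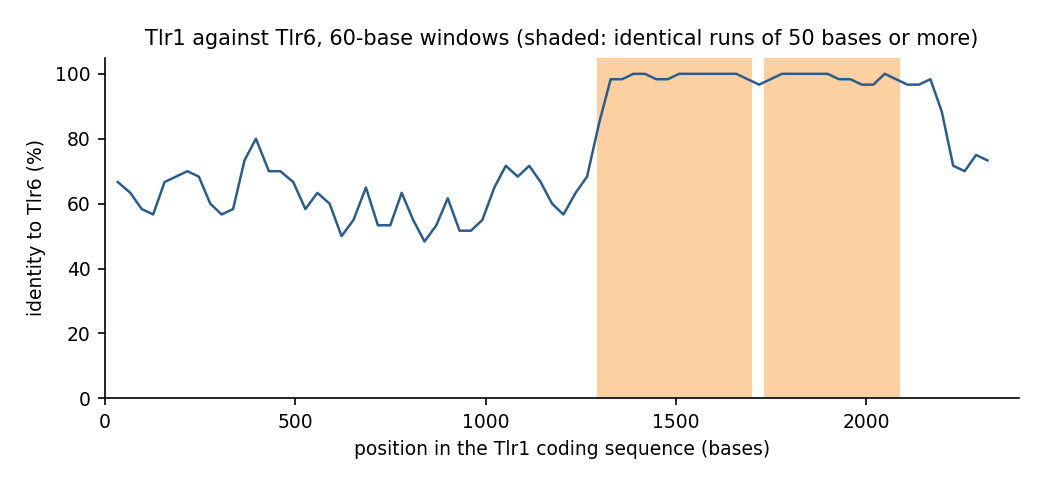
Share of identical bases (%) between the aligned Tlr1 and Tlr6 coding sequences in 60-base windows, against position in the Tlr1 coding sequence (bases). The shaded spans are the 6 identical runs, which lie between bases 1294 and 2085 of Tlr1 and include the run of 229 bases.

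Among the other members, Tlr7 also had fractional reads in all 4 sorted libraries although it shares no 50-base sequence with another annotated gene, and the source of its fractions was not traced. Myd88 (chr9:119335934-119341411, minus strand) overlaps exons of Acaa1a on the opposite strand over 290 of its 2576 exonic bases (11.3%), and no source used here says whether the counting used strand. Acaa1a had no read in the library labelled Th1 and 28.6 ± 0.50 TPM in the macrophage libraries (SD, n = 3), close to the level of Myd88. The remaining genes lie apart on GRCm38, Tlr2 at chr3:83836272-83841767, Tlr4 at chr4:66827584-66930284, Tlr9 at chr9:106222598-106226883, Tlr13 at chrX:106143204-106160493, and Cd14 on chromosome 18. Tlr8 (chrX:167242696-167264329) and Tlr7 (chrX:167304929-167330558) are neighbours on the minus strand of the X chromosome.

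In the macrophage libraries Cd14 and Myd88 stood above all 8 receptors. Cd14, the membrane-anchored protein that hands lipopolysaccharide to the Tlr4 complex, had 62.4, 58.8 and 58.7 TPM, a mean of 59.9 ± 2.09 (SD, n = 3). It was at the 93.9th percentile of the genes with a read in every macrophage library. Myd88, the adaptor that most Toll-like receptors and the interleukin-1 receptor share, had 24.9, 25.6 and 25.6 TPM (25.4 ± 0.40) and was at the 89.9th percentile. Every library placed Cd14 over Myd88 and Myd88 over the highest receptor, and none of these ranges overlapped.

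Of the surface receptors, Tlr2 was far above its partners. Tlr2, the common subunit of the lipopeptide sensors, had 6.79, 6.88 and 6.65 TPM (6.77 ± 0.12). Tlr6 had 1.42, 1.2 and 1.35 TPM (1.32 ± 0.11), and Tlr1 had 1.18, 1.0 and 1.15 TPM (1.11 ± 0.096). In every library the TPM of Tlr2 exceeded the sum of Tlr1 and Tlr6. Tlr4, the receptor for lipopolysaccharide, was the lowest of the 10 genes with 0.56, 0.54 and 0.56 TPM (0.553 ± 0.012), at the 38.2nd percentile, from 196 to 200 reads. Cd14 and Ly96, which encodes the MD-2 subunit that binds lipopolysaccharide beside Tlr4, were at a higher level than Tlr4 in each library, Ly96 with 53.7 ± 1.51 TPM.

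Of the endosomal receptors, Tlr13, a sensor of bacterial ribosomal RNA, was the highest with 4.02, 4.28 and 3.87 TPM (4.06 ± 0.21). Tlr7, a sensor of RNA rich in guanosine and uridine, had 1.78, 1.77 and 1.90 TPM (1.82 ± 0.072). Tlr8, its neighbour and close relative, had 1.18, 1.06 and 1.12 TPM (1.12 ± 0.060). Tlr9, the sensor of unmethylated CpG DNA, had 0.52, 0.72 and 0.67 TPM (0.637 ± 0.10) from 78, 110 and 101 reads. Tlr9 had the largest relative spread of the members, a coefficient of variation of 16.3% against 10.2% given by counting error alone.

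The full order by mean TPM was Cd14, Myd88, Tlr2, Tlr13, Tlr7, Tlr6, Tlr8, Tlr1, Tlr9 and Tlr4. The ranges of neighbours did not overlap in 7 of 9 steps. The exceptions were Tlr8 and Tlr1, where 1 of 3 libraries had the order of the means, and Tlr9 and Tlr4, where 2 of 3 did. Tlr6 stood above Tlr8 by its lowest value of 1.2 TPM against a highest value of 1.18 TPM for Tlr8, a gap that rests on the estimated split with Tlr1. The order by FPKM was the same. By CPM 5 genes changed place, and Tlr4, which has a long transcript, moved from place 10 to place 8.

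**Figure D2:**
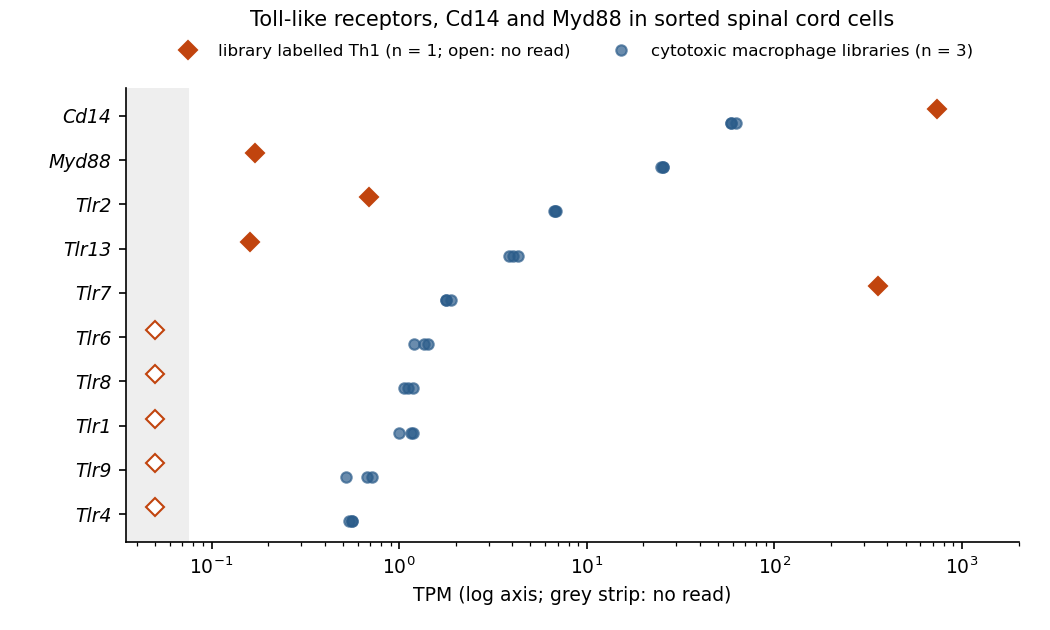
TPM (log axis) of the 10 genes, ordered by mean level in the macrophage libraries, with the library labelled Th1 (diamonds, n = 1) above the 3 macrophage libraries (circles) in each row. Open diamonds in the grey strip had no read, and the library labelled Th1 was above the macrophage libraries for Cd14 and Tlr7 alone.

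Set against each other as classes, the surface receptors summed to 9.95, 9.62 and 9.71 TPM and the endosomal receptors to 7.50, 7.83 and 7.56 TPM in the macrophage libraries. The ratio of surface to endosomal was 1.33, 1.23 and 1.28 (1.28 ± 0.049), above 1 in 3 of 3 libraries. No test was run, since 3 libraries cannot give an exact sign-flip p below 0.25. Tlr2 alone gave 69.4 ± 1.83% of the surface sum, and Tlr13 gave 53.2 ± 1.78% and Tlr7 23.8 ± 1.27% of the endosomal sum. Without Tlr2 the log2 ratio was -1.36 in place of 0.36, without Tlr2 and Tlr13 it was -0.26, and with the median of each class it was -0.27, so the direction of the sum rests on Tlr2. In the library labelled Th1 the surface sum was 0.69 TPM, all of it Tlr2, and the endosomal sum was 354.79 TPM, of which Tlr7 gave 99.95%.

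**Figure D3:**
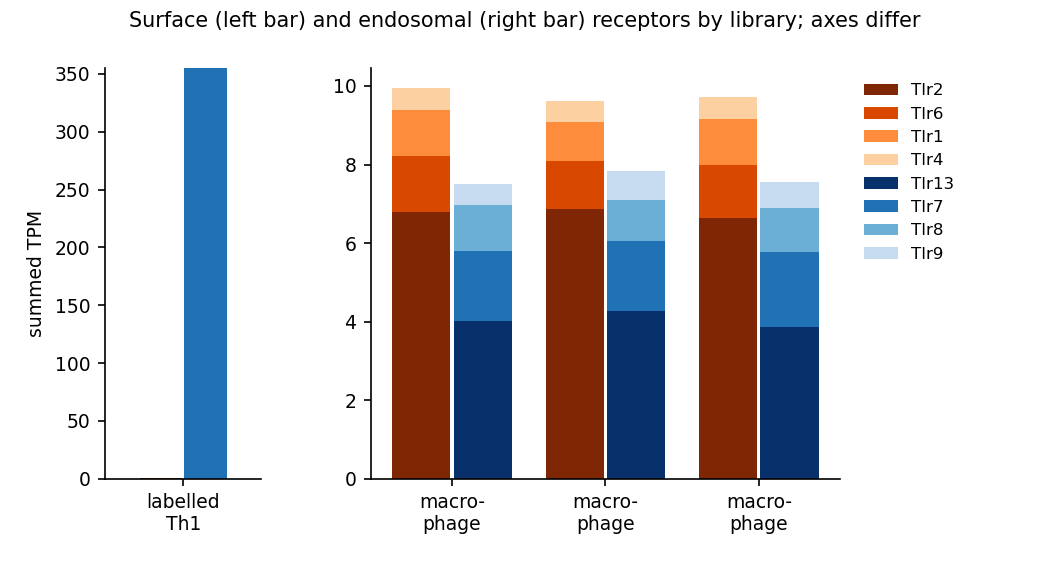
Summed TPM of the surface (left bar) and endosomal receptors (right bar) in the library labelled Th1 and in the 3 macrophage libraries, stacked by gene, on separate axes that both start at 0. The macrophage bars reach 9.62 to 9.95 TPM for the surface and 7.50 to 7.83 TPM for the endosomal class, and the bar of the library labelled Th1 at 354.79 TPM is nearly all Tlr7.

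In the macrophage libraries Tlr2 and Tlr13 carried more than any other receptor to their class sums, so the 250 bases before their annotated starts are shown, from the RefSeq annotation of GRCm38.p6 in the direction of the gene. Capitals mark exact matches to GAGGAA, letters bound by PU.1, a transcription factor of the myeloid lineage. Shorter or other forms of its site were not searched, so a window without capitals may still hold one. The Tlr2 window is chr3:83841609-83841858 on the minus strand, and the Tlr13 window is chrX:106143025-106143274 on the plus strand.
Tlr2: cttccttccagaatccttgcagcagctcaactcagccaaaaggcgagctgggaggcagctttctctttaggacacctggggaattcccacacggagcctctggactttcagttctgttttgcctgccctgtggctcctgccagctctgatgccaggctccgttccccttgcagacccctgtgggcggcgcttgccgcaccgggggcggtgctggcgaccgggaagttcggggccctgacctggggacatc
Tlr13: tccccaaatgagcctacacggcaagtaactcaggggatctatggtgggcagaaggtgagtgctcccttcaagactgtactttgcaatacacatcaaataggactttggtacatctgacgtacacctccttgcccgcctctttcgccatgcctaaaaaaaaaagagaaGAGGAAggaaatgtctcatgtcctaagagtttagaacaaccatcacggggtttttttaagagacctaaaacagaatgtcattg
On either strand, GAGGAA was found in the windows of Tlr13, Tlr8 and Tlr9 and in 1 of 2 windows of Tlr1, and not in those of Tlr2, Tlr6 and Myd88. Of 32851 promoter windows of that length in the annotation, 23.3% hold it. In Tlr13 it lay 83 bases before the start. The sequence table has no window for Tlr4 and Tlr7, and Cd14 was not looked up.

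For the library labelled Th1 over the macrophage libraries, edgeR's quasi-likelihood test (TMM scaling, Benjamini-Hochberg adjustment over 11447 genes) called 2 of the 10 genes higher and 8 lower where the adjusted p was under 0.05 and the change 4-fold or more. The same rule called 13.7% of all genes tested higher and 54.6% lower, so 8 of 10 stands against a background in which most genes were called lower. With DESeq2 size factors 5 of the 10 were called lower, against 30.1% of all genes called lower and 17.6% higher, and with library totals 8 of 10, against 71.3% lower and 9.59% higher. The median log2 fold change was -7.87 over the members and -5.61 over all genes, and -1.71 and -0.96 when genes without a read in the library labelled Th1 were set to a floor of 3 reads. With DESeq2 size factors these floored medians were -0.19 over the members and 0.55 over all genes, which turns the sign for all genes, and with library totals they were -3.20 and -2.46. With 1 library in the group, the test takes its spread from the macrophage libraries alone, and that spread may be technical. In bulk samples fewer cells of a type and less RNA per cell cannot be told apart.

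Tlr7 and Cd14 were the members called higher. Tlr7 had 354.63 TPM (4189.91 estimated reads) in the library labelled Th1, against 1.77 to 1.90 TPM (396.54 to 434.91 reads) in the macrophage libraries. The library labelled Th1 had more Tlr7 reads than all 3 macrophage libraries together. The log2 fold change was 7.78 (220-fold, adjusted p = 1.02e-30 by edgeR), and the fold was 78.1 when scaled to library totals and 630 with DESeq2 size factors. Cd14 had 734.14 TPM (3597 reads) in the library labelled Th1, against 58.7 to 62.4 TPM (3953 to 4145 reads) in the macrophage libraries. Its log2 fold change was 4.27 (19.3-fold, adjusted p = 1.92e-27 by edgeR), with folds of 6.84 by library totals and 55.2 with DESeq2 size factors. Both genes kept their direction and their call under every scaling, filter, tool and left-out library that was run. Both were among the 815 genes with the most reads in the library labelled Th1. How evenly that library sampled its transcripts was not tested by any of these settings.

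Tlr2, Tlr13 and Myd88 had a few reads in the library labelled Th1. Tlr2 had 0.69 TPM from 6 reads there, against 6.65 to 6.88 TPM from 823 to 856 reads in the macrophage libraries, a log2 fold change of -2.68 (adjusted p = 1.66e-06 by edgeR). With DESeq2 size factors the Tlr2 fold of 0.155 became 0.444 and passed the p threshold but not the 4-fold limit. Tlr13 had 2 reads, against 683 to 763, a ratio of 0.0605 with a 95% counting interval of 0.0073 to 0.219. Myd88 had 1 read, against 1969 to 2071, a ratio of 0.0107 with an interval of 0.00027 to 0.0594. Both of these intervals lie below 1 and cover counting error only.

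Tlr1, Tlr4, Tlr6, Tlr8 and Tlr9 had no read in the library labelled Th1, as had 47.5% of all genes tested. Genes without a read there passed the filter on low counts through the macrophage libraries alone. For them a call could only be lower. A floor of 3 reads equals 0.983 CPM in that library, against 0.127 to 0.13 CPM in the macrophage libraries. Against that floor Tlr8 was at least 3.78-fold lower, Tlr6 at least 3.50-fold, Tlr4 at least 3.05-fold, Tlr1 at least 2.08-fold and Tlr9 at least 1.48-fold lower with TMM scaling. None of these bounds reaches the 4-fold limit, which these genes passed on fitted values that depend on a prior count. Scaled to library totals the bounds ran from 4.18 for Tlr9 to 10.7 for Tlr8, and with DESeq2 size factors they ran from 0.518 to 1.32, under 1 for Tlr9 and Tlr1. At this depth a lower level of Tlr9 and Tlr1 was therefore not detectable under every scaling. The bounds allow for counting error alone. Of the genes at 100 CPM or more in every macrophage library, 14.8% also had no read in the library labelled Th1.

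The genes that act around the receptors were counted on 9 lists, chosen with earlier results of these data known. Of 75 tested genes on them that are not members, 13 were called higher in the library labelled Th1 and 51 lower. With DESeq2 size factors these counts were 16 and 35, and with library totals 6 and 57. Over all 11447 genes, 1567 were called higher and 6245 lower with TMM, 2009 and 3440 with DESeq2 size factors, and 1098 and 8165 with library totals. The median log2 fold change of the 75, with genes at 0 set to the floor, was -2.30 with TMM, against -0.96 over all genes. It was -0.78 against 0.55 over all genes with DESeq2 size factors, and -3.80 against -2.46 with library totals.

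Of 6 tested co-receptors and ligand carriers, 2 were called higher and 4 lower. Hmgb1, a nuclear protein that acts as a danger signal when released, had 235.22 TPM in the library labelled Th1, against 61.5 ± 0.59 TPM in the macrophage libraries (SD, n = 3). Its fold of 5.90 was 2.09 by library totals, under which it was not called. Ly86, the MD-1 partner of the Toll-like protein Cd180, fell to 2.54 TPM in the library labelled Th1, against 343 ± 2.23 TPM in the macrophage libraries. Ly96 had 1 read and Lbp, the lipopolysaccharide-binding protein, no read in the library labelled Th1, against 53.7 ± 1.51 and 4.81 ± 0.18 TPM in the macrophage libraries. The library with more Cd14 therefore had almost no detected Ly96 or Tlr4.

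Of 11 tested chaperones and endosomal enzymes, 4 were called higher and 6 lower. Unc93b1, the chaperone that carries the endosomal receptors to their compartment, fell to 0.78 TPM (5 reads) in the library labelled Th1, against 30.2 ± 0.52 TPM in the macrophage libraries. Among the proteases of the endosome and lysosome, Ctsb had 1361.93 TPM in the library labelled Th1 against 137 ± 1.01 TPM in the macrophage libraries, and Lgmn, which can cleave Tlr9, had 506.61 against 16.4 ± 0.69 TPM. Ctss went the other way, with 17.09 TPM in the library labelled Th1 against 707 ± 2.18 TPM in the macrophage libraries. Ctsl was called higher at 4.12-fold, but only 1.46-fold by library totals. The near-identical RNase genes Rnaset2a (6.98 TPM in the library labelled Th1, 217 ± 4.75 in the macrophage libraries) and Rnaset2b (1220.52 and 118 ± 9.15 TPM) are uncertain, since reads can be split between them.

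Of 5 tested adaptors, Myd88 among them, none was called higher and 5 were called lower, 2 of 5 with DESeq2 size factors. Tirap, which links Tlr2 and Tlr4 to Myd88, had 1 read in the library labelled Th1 against 1.66 ± 0.10 TPM in the macrophage libraries. Ticam1 and Ticam2, the TRIF and TRAM adaptors of Tlr3 and Tlr4, had none, against 0.727 ± 0.057 and 1.03 ± 0.076 TPM, and Pik3ap1 had 2 reads against 1.26 ± 0.12 TPM.

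Of 19 tested kinases and ubiquitin ligases, 4 were called higher and 12 lower. Tbk1, the kinase upstream of interferon regulatory factors, had 33.72 TPM in the library labelled Th1 against 1.2 ± 0.11 TPM in the macrophage libraries. Ikbkb (33.06 against 2.21 ± 0.14 TPM), Syk (30.37 against 6.75 ± 0.084 TPM) and Irak1 (7.64 against 2.64 ± 0.067 TPM) were called higher too, with folds of 2.93, 2.29 and 1.59 by library totals. Lyn fell to 0.41 TPM in the library labelled Th1, against 26.4 ± 0.77 TPM in the macrophage libraries, and Btk had no read against 6.87 ± 0.17 TPM.

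Of 9 tested transcription factors, 1 was called higher and 7 lower. Rela, the p65 subunit of NF-kappaB, had 496.01 TPM (3743 reads) in the library labelled Th1 against 6.58 ± 0.11 TPM in the macrophage libraries. Its partner Nfkb1 had 1 read against 3.67 ± 0.057 TPM, and Rel had none against 1.30 ± 0.070 TPM. The interferon regulatory factors Irf5, Irf7 and Irf8 had 0.77, 0.72 and 0.34 TPM in the library labelled Th1, against 22.0 ± 0.50, 21.9 ± 0.33 and 17.1 ± 0.56 TPM in the macrophage libraries.

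Of 12 tested negative regulators, 2 were called higher and 10 lower. Sigirr, an inhibitory member of the interleukin-1 receptor family, had 325.00 TPM in the library labelled Th1 against 0.650 ± 0.12 TPM in the macrophage libraries, and the deubiquitinase Cyld had 11.03 against 2.11 ± 0.047 TPM. The fold of Cyld was 7.90, and by library totals it was 2.80 and not called. Nfkbia, the inhibitor of NF-kappaB that NF-kappaB itself induces, fell to 2.16 TPM in the library labelled Th1, against 217 ± 6.16 TPM in the macrophage libraries. Socs3 fell to 0.60 TPM against 13.6 ± 0.68 TPM, Trim30a had 1 read against 12.4 ± 0.093 TPM, and Tnip1 had no read against 2.22 ± 0.093 TPM.

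Of 13 tested transcripts that receptor signalling induces, 1 was called higher and 8 lower. Cxcl2 and Il1b, a neutrophil-attracting chemokine and the precursor of interleukin-1 beta, had no read and 1 read in the library labelled Th1, against 685 ± 3.37 and 404 ± 3.21 TPM in the macrophage libraries. Ccl4 had 359.75 TPM in the library labelled Th1 against 118 ± 1.59 TPM in the macrophage libraries, a fold of 5.21 that was 1.85 by library totals. Ccl3, encoded beside Ccl4, had 3 reads against 142 ± 1.41 TPM, and Cxcl10 and Acod1 had no read against 30.4 ± 0.98 and 7.33 ± 0.46 TPM.

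**Figure D4:**
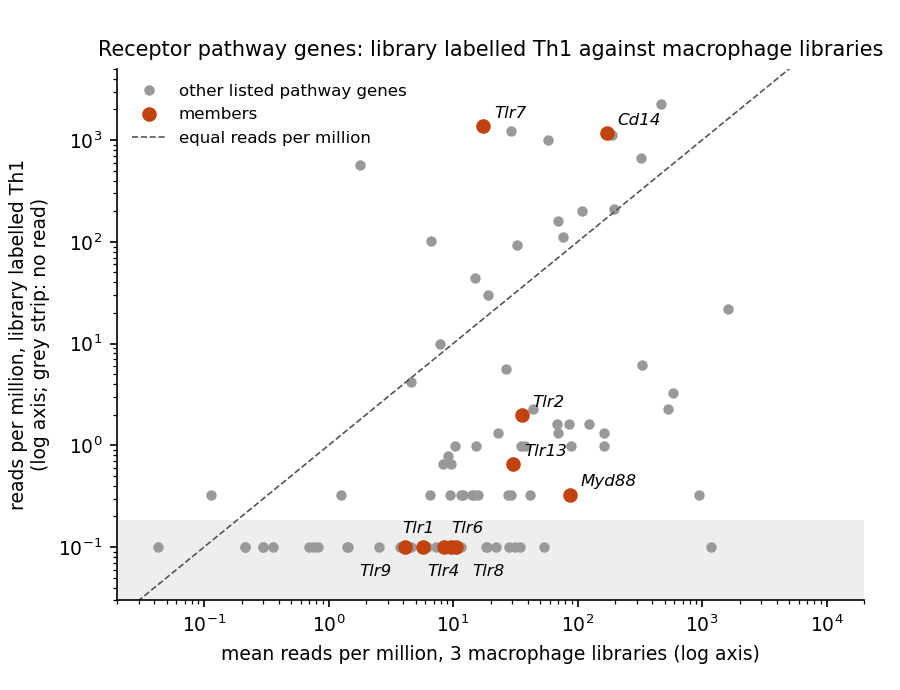
CPM in the library labelled Th1 against the mean of the 3 macrophage libraries, on log axes, for the 10 members (red) and the other listed pathway genes (grey). Genes in the grey strip had no read in the library labelled Th1, Sarm1 and Il12b with no read in any library are left out, and Tlr7 and Cd14 lie above the line of equal values while the other members lie below it or in the strip.

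Some markers of other cell types differed between these libraries too. The monocyte and macrophage markers Ms4a7 (393.52 against 3.997 ± 0.081 TPM), Adgre1 (81.60 against 7.63 ± 0.18), Fcgr1 (167.47 against 25.2 ± 0.28) and Apoe (2049.19 against 307 ± 3.34) were called higher in the library labelled Th1, while Cd68 (1.68 against 207 ± 6.09), Ly6c2 (no read against 6376 ± 160 TPM) and Ccr2 were called lower. By library totals Fcgr1 and Apoe, at 3.65-fold and 3.77-fold, were not called. All 4 erythroid markers were called lower, with a sum of 22.0 TPM in the library labelled Th1 against 3344 to 3407 TPM in the macrophage libraries. Of 5 neuron markers, Tubb3 (19.25 against 0.04 ± 0.017 TPM) and Syt1 (24 reads against at most 1) were higher in the library labelled Th1. The other 3 had no read there. All B cell, NK cell and conventional dendritic cell markers were at 0 reads in the library labelled Th1. In the macrophage libraries they summed to 6.0 to 6.69, 26.1 to 27.7 and 1.12 to 1.18 TPM. With genes at 0 set to the floor, median log2 fold changes of the tested ones were 1.39, 1.77 and 0.17 with TMM. With library totals they were -0.11, 0.27 and -1.33. Thus 0 reads do not place these lists lower under every scaling. No neutrophil marker was called higher and 11 of 13 were called lower, with Ly6g at no read, and no microglia marker was called in either direction, their sum being 27.8 TPM against 64.8 to 66.4 TPM. With DESeq2 size factors 1 neutrophil marker was called higher and 6 lower, and 3 microglia markers were called higher, whereas library totals called 3 microglia markers lower. Markers of plasmacytoid dendritic cells, which are known for Tlr7 and Tlr9, summed to 1.61 TPM in the library labelled Th1, with 4 of 6 at no read, against 111 to 115 TPM in the macrophage libraries, where Bst2 made up most of the sum. The part of these cell types, and of the lower depth, in the values of the members was not tested.

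The genes whose levels were most like those of Cd14, the most abundant member, were named by Euclidean distance in log2(TPM + 1) over the 4 sorted libraries. They were Lamp2 at a distance of 0.0996, Snrpd1 at 0.125, Hsp90aa1 and Hpcal1 both at 0.182, and Pigx at 0.210. Lamp2, a protein of the lysosomal membrane, had 783.17 TPM in the library labelled Th1, against 58.2 to 62.5 TPM in the macrophage libraries. The distances rest on 4 libraries that share depth and scaling.

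In the OPC cultures the values come from the authors' deposited table alone, which holds 1 comparison and no value per library, so neither a spread between cultures nor an own test can be given. The deposited table names no numerator, and the sign was turned to Apc-deleted over wild type because Notum, Sp5, Lef1 and Axin2, targets of the Wnt pathway that Apc restrains, were then higher. For Apc itself the authors' deposited table gives a log2 fold change of -0.14 at a mean of 13477 normalized counts, and whole-gene counts do not show the loss of floxed exons alone. The summed mean of 5 neuron markers in it was 230003 normalized counts, of which Tubb3 gave 122255, against 32077 for 6 OPC markers. Csf1r, a receptor of microglia and macrophages, averaged 769 normalized counts. No length correction is stated for these counts, so the sums of different genes do not give shares of cells.

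None of the 7 measured members passed the threshold of 0.05 on the adjusted p of the authors' deposited table, by which 0.393% of all genes were called higher and 0.155% lower in Apc-deleted cultures. All 7 log2 fold changes were above 0, as were 50.3% of those of all genes. The median was 1.75 over the 7 members and 0.00 over all genes, and 4 of 7 members had an unadjusted p under 0.05, as had 3.63% of all genes. Over the 6620 genes with a mean within the members' range, 50.8% were above 0 and 2.31% had an unadjusted p under 0.05. The members were not treated as independent of each other.

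Of the surface receptors, Tlr4 had in the authors' deposited table a log2 fold change of 3.96 (SE 1.37, unadjusted p = 0.0038, adjusted p = 0.349). Its mean was 5.19 normalized counts, which works out to 9.75 in Apc-deleted and 0.625 in wild-type cultures. Tlr2 had 0.89 (SE 0.98) at a mean of 4.23 normalized counts, and Tlr6 had 0.44 (SE 0.64) at a mean of 10.3, both in the authors' deposited table. Of the endosomal receptors, Tlr13 had in the authors' deposited table a log2 fold change of 2.26 (SE 0.86, adjusted p = 0.627), at group means that work out to 15.3 in Apc-deleted and 3.2 in wild-type cultures. Tlr7 had 1.75 (SE 0.82, unadjusted p = 0.033), with 10.3 against 3.07, again from the authors' deposited table. These receptors were all at or under about 10 normalized counts on average, so a few reads in 1 culture weigh heavily.

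Cd14 had in the authors' deposited table a log2 fold change of 1.78 (SE 0.61, unadjusted p = 0.0037, adjusted p = 0.346), with group means that work out to 34.4 in Apc-deleted and 10.03 in wild-type cultures. Its 95% interval ran from 0.58 to 2.98 before adjustment. Myd88, with the highest mean of the members at 59.96 normalized counts, had 0.25 (SE 0.28) in the authors' deposited table, an interval that reaches from -0.31 to 0.80. The standard errors of Tlr4, Cd14 and Tlr13 were 1.58, 1.42 and 1.31 times the median of genes with a like mean.

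**Figure D5:**
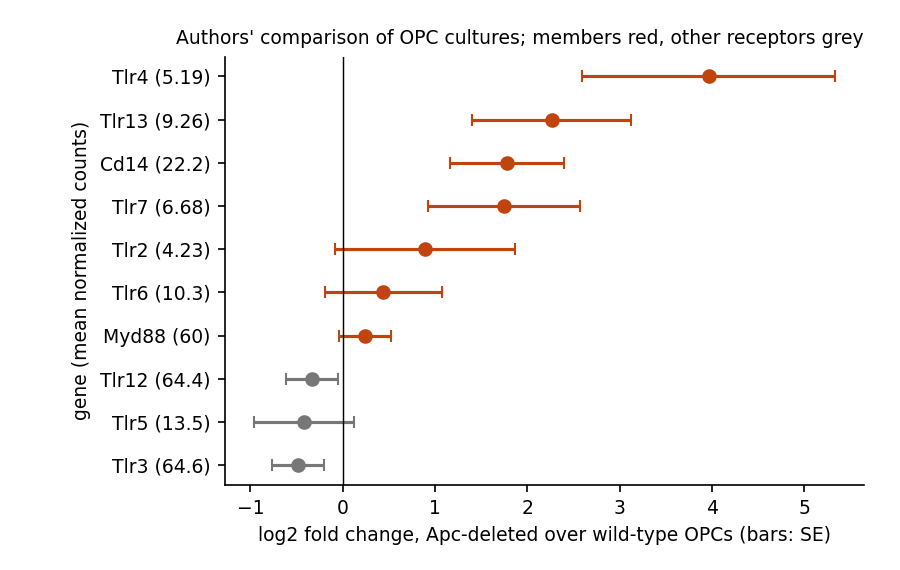
Log2 fold change, Apc-deleted over wild-type OPC cultures, with its SE (bars) from the authors' deposited table, for the 7 measured members (red) and for Tlr12, Tlr5 and Tlr3 (grey), with the mean normalized counts in brackets. All members lie right of 0 and the other receptors left of it, and none passed an adjusted p under 0.05.

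The remaining receptors in the authors' deposited table, none of them called, were below 0, with log2 fold changes of -0.49 (SE 0.28) for Tlr3, -0.42 (SE 0.54) for Tlr5 and -0.33 (SE 0.28) for Tlr12. Tlr3, a sensor of duplex RNA, and Tlr12, a sensor of profilin, had means of 64.6 and 64.4 normalized counts, above every member. Of 7 co-receptors and ligand carriers in the authors' deposited table, 1 was called higher, Cd36, a scavenger receptor that works with Tlr2 and Tlr6 (log2 1.36, SE 0.36, adjusted p = 0.0284). Of 9 transcription factors, 1 was called higher, Irf5, which acts downstream of Myd88 (log2 3.41, SE 0.93, adjusted p = 0.0499 in the authors' deposited table). Of 4 induced transcripts measured, 1 was called higher, Ccl4 (log2 7.0, SE 1.35, adjusted p = 0.000137 in the authors' deposited table). The standard errors of Ccl4, Irf5 and Cd36 were 3.12, 1.65 and 1.15 times the median of genes with a like mean. No gene of the chaperone list (12 measured), the adaptors (6), the kinases (19) or the negative regulators (12) was called, and no listed gene was called lower.

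Beside these values, markers of myeloid cell types were counted. In the authors' deposited table, 2 of 10 monocyte and macrophage markers were called higher in Apc-deleted cultures and none lower. The shares over all genes were 0.393% and 0.155%. The 2 markers were Lyz2 (log2 4.33, SE 0.96, adjusted p = 0.00243) and Cd68 (log2 1.54, SE 0.36, adjusted p = 0.00729), both from that table. Their standard errors were 7.12 and 1.98 times the median of genes with a like mean. Adgre1 had 1.87 and Ms4a7 1.59 without passing, while Csf1r had 0.01 and Mertk 0.00, and the median over the 10 markers was 0.04. Of 7 microglia markers none was called, with a median of -0.01. No neutrophil marker was called, with a median of -0.30 over 10 measured. The part of these cells in the values of the members was not tested.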

How the data were processed

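RNA sequencing of mouse OPC cultures and of sorted spinal cord cells was analysed from the processed values. For each sorted library the authors deposited TPM, FPKM and estimated counts of reads per gene, per the file headers, with genome build GRCm38 per the submitters' processing notes. No source used here gives the aligner, counting tool or annotation. Another 4 columns of values per sample were not used. For the OPC cultures the authors deposited 1 comparison with the mean of normalized counts (a signal over all compared libraries), a log2 fold change and its standard error, a test statistic (a score with no fixed range), and p-values with and without adjustment, per the file headers, whose names are those DESeq2 writes.

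Blanks in the sorted tables counted as 0, and each estimated count was rounded. The quasi-likelihood test of edgeR 4.0.16, with TMM scaling, the filterByExpr filter and Benjamini-Hochberg adjustment, compared the 1 library labelled Th1 with the 3 macrophage libraries, whose columns carry no replicate number. The lone library is assumed to vary like the macrophage libraries. A call needed an adjusted p below 0.05 and a change of 4-fold or more. All 10 members passed the filter on low counts. For 5 of them, with no read in the library labelled Th1, this rested on the macrophage libraries alone. The alternative called DESeq2 size factors here used factors of that kind from the RLE (relative log expression) method of edgeR. It kept the quasi-likelihood test of edgeR. DESeq2 1.42.0 itself gave the Wald test alone. Other alternatives were library totals, no filter and each macrophage library left out. Bounds use a floor of 3 reads in the library labelled Th1, and intervals of ratios are exact 95% intervals, which cover counting error only. For genes with over 300 reads in the macrophage libraries, the median coefficient of variation was 4.15%, below the 4.89% from counting error. Over the 11019 to 11058 genes compared per pair, libraries differed by more than sampling noise (chi-square per degree of freedom 1.29 to 2.53). They were kept as 3, though neither value shows that they are biological replicates.

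Gene positions come from GENCODE on GRCm38 and promoter windows from RefSeq on GRCm38.p6, where 7 of 10 members had a window. The members and all lists were chosen with earlier results of these data known. From each list the text names up to 6 called genes per comparison in order of p and the 3 most abundant, and 5 genes most like Cd14. One listed marker is counted in its list and not reported by name here. Software was R 4.3.3 and Python 3.11.15 with matplotlib 3.10.9, Biopython 1.88, scipy 1.17.1, pandas 2.3.3 and numpy 2.4.6.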

Additional observations from a re-analysis of the deposited data

How the results depend on the processing

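In the comparison of the library labelled Th1 with the macrophage libraries, the count of genes called lower was 6245 with TMM scaling, 8165 with library totals, 3440 with DESeq2 size factors and 2488 by the DESeq2 Wald test, and genes called higher numbered 1567 with TMM, 1098 with library totals, 2009 with DESeq2 size factors and 1929 by the Wald test. Of the 10 members, 8 were called lower with TMM, 5 with DESeq2 size factors and 2 (Tlr13 and Myd88) by the Wald test, which gave Tlr9 no adjusted p. Adjusted p over the alternatives reached 0.149 for Tlr9, 0.12 for Tlr1, 0.0862 for Tlr2, 0.0734 for Tlr4, 0.0613 for Tlr6 and 0.0546 for Tlr8. DESeq2 size factors give the library labelled Th1 a smaller effective size than TMM, and library totals a larger one. Tlr7 and Cd14 were called higher under all of them. With 1 macrophage library left out at a time, genes called higher numbered 1567 to 1575, genes called lower 6203 to 6223, members called higher 2 to 2 and lower 8 to 8. The log2 ratio of surface to endosomal receptors, 0.36 as reported, was -1.36 without Tlr2, 1.45 without Tlr13, -0.26 without both and -0.27 with class medians, and 0.33 with all measured Toll-like receptors. It was 0.33 to 0.38 with 1 library left out. Of the OPC members with a mean of 10 or more normalized counts none passed after readjustment, with Cd14 at an adjusted p of 0.288 by Benjamini-Hochberg over 15897 genes of the authors' deposited table. No paired analysis was possible because the OPC table holds no value per library and the sorted groups share fewer than 2 replicate numbers. Depth limits every statement on a gene with no read in the library labelled Th1. In that library 14.8% of the genes at 100 CPM or more in every macrophage library had no read either. What else limits detection there was not tested. The OPC depths are unknown.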
